A study of Mus musculus with 9 samples.

Results

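The cytokine inhibitors examined here are 8 members of the suppressor of cytokine signaling family (Socs1 to Socs7 and Cish) and 2 protein inhibitors of activated STAT (Pias2 and Pias3). All probesets whose single annotated gene symbol was one of these 10 genes were taken, which gave 29 of the 45037 probesets tested, and 10 of the 18193 genes with such a probeset. RNA came from mouse Balb/c-3T3 fibroblasts that expressed v-Src, the transforming tyrosine kinase of Rous sarcoma virus (plasmid pMvSrc), from Balb/c-3T3 cells that expressed STAT3-C, a constitutively active form of the transcription factor STAT3 (plasmid pRc/CMV-STAT3C, with a CMV promoter), and from control Balb/c-3T3 cells. The v-Src and STAT3-C lines were stably transfected, and the control was the parental line with no transfected gene. The effect of transfection itself was not tested. All 3 lines grew in the same medium with bovine calf serum. Each line was measured on 3 Affymetrix arrays, numbered 1, 5 and 6 for v-Src and 1, 2 and 3 for STAT3-C and control. Each array held RNA pooled from 5 dishes at 1 passage, so a p-value here compares passages of 1 line with passages of another and not independently made lines. Only RNA was measured, so neither protein levels nor STAT activity are described.

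In the pathway that these genes restrain, a cytokine receptor activates Janus kinases (JAKs), which phosphorylate STAT proteins, and the STATs then dimerize and bind DNA. SOCS proteins carry an SH2 domain that binds phosphotyrosine and a SOCS box that recruits elongins and a cullin into a ubiquitin ligase, and several of them are themselves induced by STATs, which closes a negative feedback loop. PIAS proteins act in the nucleus on STATs and other transcription factors and are E3 ligases for the small modifier SUMO. v-Src is known to activate STAT3 by tyrosine phosphorylation, and Socs3 is a textbook STAT3 target in many cell types.

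Values are log2 expression from Robust Multichip Average (RMA), in which a difference of 1 is a 2-fold difference. Each comparison was tested with limma, a linear model that shares information on the spread across probesets. A probeset was called changed where its p, adjusted by Benjamini-Hochberg over all probesets, was below 0.05 and its fold was at or above 1.5. Readings that did not overlap between lines are described without a test, and the share of all probesets without overlap is not given here. Some probesets that were not called, such as that of Socs1, also had no overlap with control. The lower quartile of an array lay between 5.07 and 5.16, its median between 6.27 and 6.39 and its highest value between 14.13 and 14.44. Arrays of the same line correlated at 0.990 to 0.995 across probesets, against 0.971 to 0.977 between v-Src and STAT3-C arrays, 0.943 to 0.948 between v-Src and control arrays and 0.944 to 0.948 between STAT3-C and control arrays. The mean of 9 fibroblast markers was 9.53 to 10.04 on the v-Src arrays and 9.93 to 10.03 on the STAT3-C arrays, against 11.78 to 12.00 on the control arrays, and 6 of them fell in v-Src cells and 7 in STAT3-C cells. Thy1, a surface glycoprotein of fibroblasts, read 5.55 to 5.83 on the v-Src arrays and 5.55 to 5.79 on the STAT3-C arrays, against 10.40 to 11.25 on the control arrays. Its fall was the largest of the 9 in both lines. Vim (0.01), Col1a2 (-0.32) and Dcn (-0.33) were not called in v-Src cells, nor Vim (-0.25) and Col3a1 (-0.38) in STAT3-C cells. Epithelial markers averaged 6.53 to 6.63 on v-Src, 6.37 to 6.66 on STAT3-C and 6.47 to 6.64 on control arrays, and of these 4 only Epcam was called, in the direct comparison (0.66). Macrophage and leukocyte markers averaged 6.07 to 6.33 on v-Src, 6.26 to 6.59 on STAT3-C and 5.84 to 6.27 on control arrays, and of these 4 only Cd68 was called, higher in STAT3-C cells than in control (by 1.14, limma adjusted p = 0.0108) and differing by -1.17 between v-Src and STAT3-C cells. Endothelial markers averaged 5.62 to 5.73 on v-Src, 5.65 to 5.77 on STAT3-C and 5.40 to 5.64 on control arrays. The part of cell identity in the results was not tested. For the introduced genes, neither of the 2 Src probesets passed the test in v-Src cells, and of 4 Stat3 probesets 1 rose in STAT3-C cells (by 0.72) and 2 in v-Src cells (by 1.30 and 1.53). Where these probes lie relative to the introduced sequences is not given in the sources used here.

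**Figure D1:**
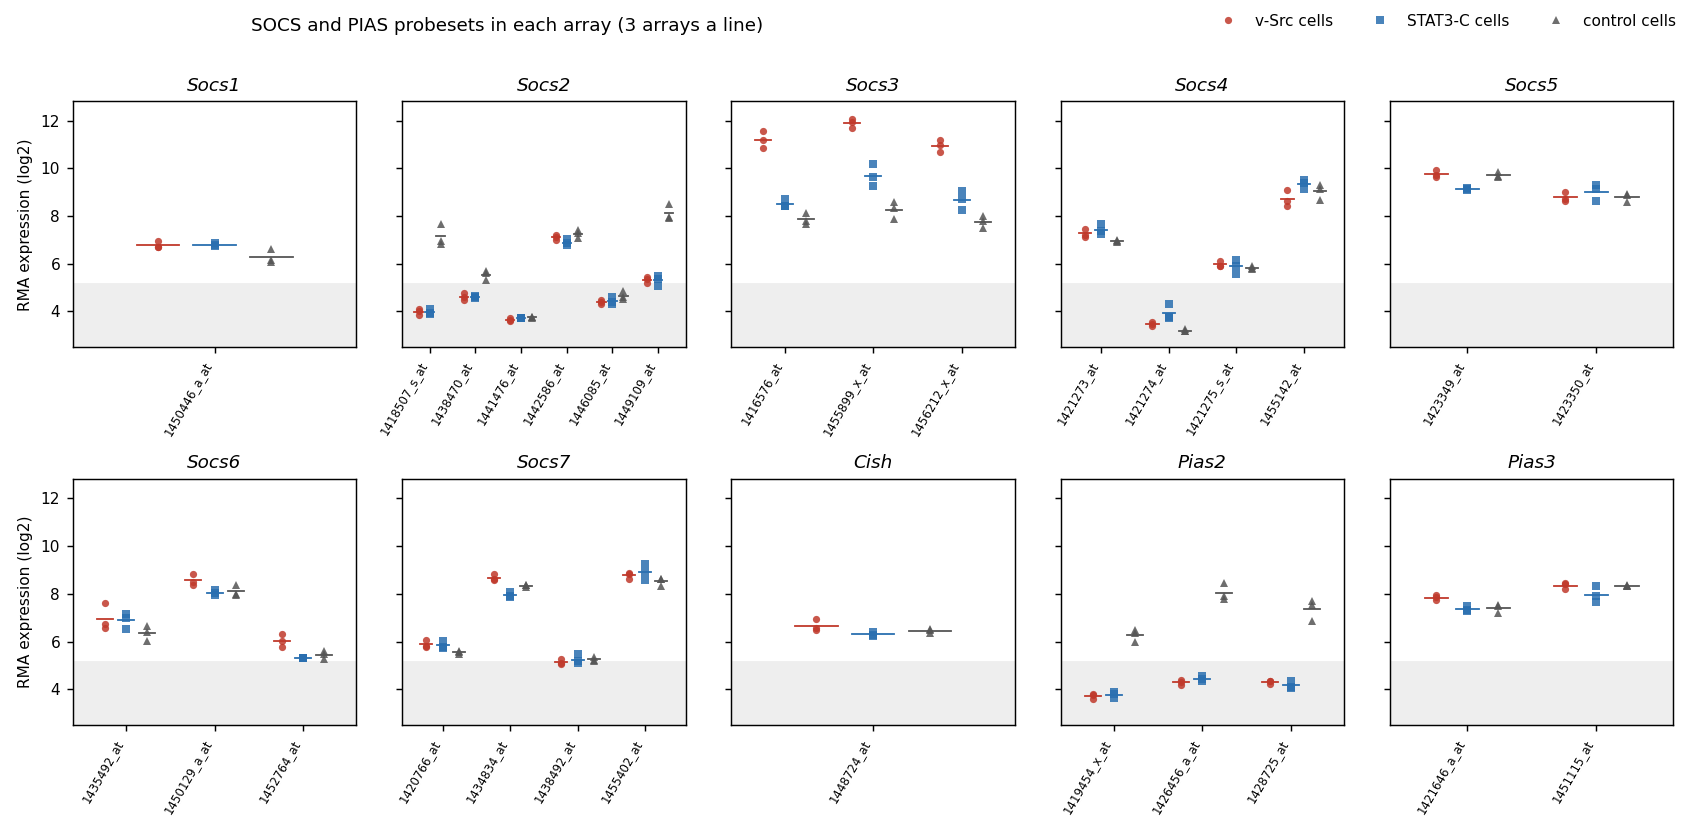
Log2 RMA expression (vertical axis) of the inhibitor probesets on each array, with arrays of v-Src, STAT3-C and control cells from left to right for each probeset, points for arrays and bars for the mean of 3. Below the grey limit of 5.16, the highest lower quartile of an array, a probeset was dimmer than most on its array. Socs3 stood high in v-Src cells. In both transfected lines the 3 Pias2 probesets and the Socs2 probesets 1418507_s_at and 1449109_at lay at or near the grey band. The Socs2 probeset 1442586_at, also high in control, stayed well above that band in every line.

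Socs3 inhibits JAKs bound to the gp130 receptor family, and it was the only one of the 10 genes whose probesets rose in both lines with every probeset passing the test. STAT dimers recognise the palindrome TTCNNNGAA, which is its own reverse complement, so that 1 search covers both strands. RefSeq promoter windows (assembly GRCm38.p6), which run over 300 bases from upstream of the transcript start to just past it, were found for 5 of the 10 genes. The windows of Socs3 (chr11:117969317-117969616, minus strand) and Cish (chr9:107296409-107296708, plus strand) are shown because they alone among those examined held the palindrome, which is in capitals.
Socs3: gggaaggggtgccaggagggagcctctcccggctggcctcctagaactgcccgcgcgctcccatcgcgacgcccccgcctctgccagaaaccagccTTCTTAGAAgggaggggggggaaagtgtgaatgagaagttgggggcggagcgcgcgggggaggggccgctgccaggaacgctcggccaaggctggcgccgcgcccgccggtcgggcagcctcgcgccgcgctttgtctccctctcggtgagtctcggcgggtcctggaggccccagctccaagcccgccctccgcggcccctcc
Cish: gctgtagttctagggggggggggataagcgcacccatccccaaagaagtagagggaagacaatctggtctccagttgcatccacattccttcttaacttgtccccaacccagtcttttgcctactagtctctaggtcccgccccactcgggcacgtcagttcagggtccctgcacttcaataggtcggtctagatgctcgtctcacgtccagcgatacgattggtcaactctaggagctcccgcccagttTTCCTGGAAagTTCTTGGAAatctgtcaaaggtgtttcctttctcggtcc
The Socs3 window held 1 copy, TTCTTAGAA, which runs from position -154 to -146 relative to the transcript start. The Cish window held 2 copies that do not overlap, TTCCTGGAA at 1 to 9 and TTCTTGGAA at 12 to 20. The palindrome was in 2722 of 32817 promoter windows (8.29%) and in 150 (0.457%) at least 2 times. The windows of Socs1, Socs4 and Pias3 held no copy of those letters, and the variant of the palindrome with 4 spacer bases, which was in 6.95% of all windows, was in none of the members' windows examined. These matches describe letters and carry no measure of binding.

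The Socs3 probeset 1416576_at read 11.20, 10.84 and 11.56 on the v-Src arrays, 8.70, 8.42 and 8.43 on the STAT3-C arrays and 7.66, 7.78 and 8.13 on the control arrays. The 3 lines did not overlap, and v-Src stood highest and control lowest. The probeset rose in v-Src cells by 3.35 (SE 0.20, n = 3 arrays a line, 10.2-fold, limma adjusted p = 4.89e-05), and in STAT3-C cells by 0.67 (SE 0.14, 1.59-fold, limma adjusted p = 0.00894).

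The second Socs3 probeset, 1455899_x_at, read 11.94, 11.68 and 12.06 in v-Src cells, 10.17, 9.65 and 9.25 in STAT3-C cells and 7.85, 8.33 and 8.60 in control. Its changes were 3.63 in v-Src cells (SE 0.19, 12.4-fold, limma adjusted p = 3.19e-05) and 1.43 in STAT3-C cells (SE 0.25, 2.69-fold, limma adjusted p = 0.00373). The lowest v-Src array stood above the highest STAT3-C array, and the lowest STAT3-C array above the highest control array. The last, 1456212_x_at, read 10.97, 10.68 and 11.19 in v-Src cells, 9.04, 8.70 and 8.25 in STAT3-C cells and 7.50, 8.00 and 7.79 in control. It rose by 3.18 in v-Src cells (SE 0.17, 9.06-fold, limma adjusted p = 3.01e-05) and by 0.90 in STAT3-C cells (SE 0.21, 1.86-fold, limma adjusted p = 0.0125). Its 3 lines also did not overlap. The suffix x marks probesets that may hybridise with other transcripts, so the pair of x probesets counts as less certain than 1416576_at.

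By log2 fold change in v-Src cells, these 3 probesets ranked 95, 64 and 114 from the top among all 45037. In STAT3-C cells the call for 1416576_at was lost without control array 1 (0.57, limma adjusted p = 0.0364) and without STAT3-C array 1 (0.58, limma adjusted p = 0.0427), each by falling under the fold threshold. For 1456212_x_at it was lost without control array 1 (0.77, limma adjusted p = 0.0506). The call for 1455899_x_at in STAT3-C cells was kept when any 1 array was left out.

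Cish and Socs1 are, with Socs2 and Socs3, the best known feedback inhibitors of the family, Cish acting on STAT5 signaling and Socs1 on JAKs and interferon signaling. The single Cish probeset, 1448724_at, read 6.93, 6.58 and 6.46 in v-Src cells, 6.26, 6.23 and 6.41 in STAT3-C cells and 6.49, 6.51 and 6.38 in control, near the median of the arrays. The lines overlapped with control, and the differences were 0.20 in v-Src cells (SE 0.13, limma adjusted p = 0.297) and -0.16 in STAT3-C cells (SE 0.09, limma adjusted p = 0.255), neither past the test. Without v-Src array 1, the highest, the v-Src difference was 0.06.

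The Socs1 probeset 1450446_a_at read 6.71, 6.96 and 6.71 in v-Src cells, 6.75, 6.78 and 6.86 in STAT3-C cells and 6.06, 6.14 and 6.62 in control. Every array of both lines stood above every control array. The differences of 0.52 in v-Src cells (SE 0.16, limma adjusted p = 0.0468) and 0.53 in STAT3-C cells (SE 0.15, limma adjusted p = 0.0303) were under the fold threshold of 1.5 and were not called. Control array 3 was the highest of its group, and without it both differences were 0.70 and passed (limma adjusted p = 0.00728 in v-Src cells and 0.00275 in STAT3-C cells).

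Socs2 restrains growth hormone signaling, and mice without it grow large. Its 6 probesets did not move together. Probeset 1418507_s_at read 4.01, 3.87 and 4.10 in v-Src cells, 4.08, 3.93 and 3.91 in STAT3-C cells and 7.68, 6.83 and 6.94 in control. Both lines were below the lower quartile of the arrays while control was above the median, with no overlap. It fell by 3.16 in v-Src cells (SE 0.22, 8.94-fold lower, limma adjusted p = 8.71e-05) and fell by 3.18 in STAT3-C cells (SE 0.21, 9.06-fold lower, limma adjusted p = 2.61e-05). Probeset 1449109_at read 5.35, 5.43 and 5.19 in v-Src cells, 5.37, 5.08 and 5.47 in STAT3-C cells and 8.49, 7.95 and 7.92 in control. It fell by 2.80 in v-Src cells (SE 0.16, 6.96-fold lower, limma adjusted p = 4.33e-05) and fell by 2.81 in STAT3-C cells (SE 0.17, 7.02-fold lower, limma adjusted p = 1.98e-05), again with no overlap.

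A dimmer Socs2 probeset, 1438470_at, read 4.79, 4.48 and 4.58 in v-Src cells, 4.58, 4.63 and 4.56 in STAT3-C cells and 5.31, 5.60 and 5.68 in control, and it fell by 0.91 in v-Src cells (SE 0.13, limma adjusted p = 0.00179) and fell by 0.94 in STAT3-C cells (SE 0.11, limma adjusted p = 0.000540), with no overlap. The other 3 did not pass in either line. Of these, 1442586_at was the brightest on average, at 7.18, 7.12 and 7.01 in v-Src cells, 6.77, 6.85 and 7.03 in STAT3-C cells and 7.27, 7.41 and 7.08 in control, with differences of -0.15 in v-Src cells and -0.37 in STAT3-C cells. The v-Src arrays overlapped with control, and the STAT3-C arrays all lay just below it. The other two, 1441476_at and 1446085_at, were below the lower quartile on every array. Which Socs2 transcripts each probeset reports is not given in the sources used here, and when all 6 were averaged Socs2 was lower by -1.23 in v-Src cells and -1.26 in STAT3-C cells.

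Pias2 encodes a SUMO ligase of the PIAS family. Its 3 probesets fell in v-Src cells and in STAT3-C cells. The brightest, 1426456_a_at, read 4.29, 4.39 and 4.17 in v-Src cells, 4.43, 4.55 and 4.35 in STAT3-C cells and 7.91, 7.76 and 8.46 in control. It fell by 3.76 in v-Src cells (SE 0.18, 13.5-fold lower, limma adjusted p = 1.88e-05) and fell by 3.60 in STAT3-C cells (SE 0.17, 12.1-fold lower, limma adjusted p = 6.10e-06). Both lines lay below the lower quartile of every array and control above the median, so that the spread between passages was small against the gap.

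Probeset 1428725_at of Pias2 read 4.35, 4.33 and 4.23 in v-Src cells, 4.32, 4.07 and 4.09 in STAT3-C cells and 7.54, 6.86 and 7.70 in control. It fell by 3.06 (SE 0.21, limma adjusted p = 8.22e-05) in v-Src cells and fell by 3.20 (SE 0.21, limma adjusted p = 2.53e-05) in STAT3-C cells. Probeset 1419454_x_at was the dimmest, with 3.80, 3.76 and 3.61 in v-Src cells, 3.88, 3.79 and 3.62 in STAT3-C cells and 6.49, 5.97 and 6.37 in control. It fell by 2.55 in v-Src cells (SE 0.14, limma adjusted p = 3.60e-05) and fell by 2.51 in STAT3-C cells (SE 0.15, limma adjusted p = 1.56e-05). As for Socs3, its suffix x marks a probeset that may hybridise with other transcripts, so it counts as less certain. None of the 3 probesets overlapped with control in either line. The readings of both lines were below the lower quartile here, as for 1418507_s_at and 1438470_at of Socs2, and array background limits how large a fall can be read at that level.

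Pias3 binds activated STAT3 and blocks its binding to DNA. Its probeset 1421646_a_at read 7.85, 7.72 and 7.95 in v-Src cells, 7.26, 7.50 and 7.30 in STAT3-C cells and 7.20, 7.50 and 7.55 in control. The v-Src arrays were all above both other lines, by 0.42 over control (limma adjusted p = 0.0319), under the fold threshold, and the STAT3-C difference was -0.06. Probeset 1451115_at read 8.39, 8.18 and 8.45 in v-Src cells, 7.92, 8.32 and 7.66 in STAT3-C cells and 8.33, 8.37 and 8.34 in control, and the STAT3-C difference of -0.38 did not pass (limma adjusted p = 0.112). Neither Pias3 probeset was called in either comparison with control.

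Socs4 to Socs7 are the less studied members, of which Socs4 and Socs5 are known for acting on the EGF receptor, Socs6 on receptor tyrosine kinases such as the insulin receptor and Socs7 on insulin signaling. None of their 13 probesets was called in v-Src cells. In STAT3-C cells the Socs5 probeset 1423349_at, which read 9.73, 9.63 and 9.92 in v-Src cells, 9.13, 9.16 and 9.09 in STAT3-C cells and 9.62, 9.66 and 9.86 in control, fell by 0.59 (SE 0.10, limma adjusted p = 0.00256). The 3 STAT3-C arrays were close together and below every array of the other lines, while v-Src and control overlapped. This call was lost without control array 3 (-0.51) and without STAT3-C array 3 (-0.57), and the other Socs5 probeset, 1423350_at, was not called (-0.01 in v-Src cells and 0.21 in STAT3-C cells).

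For Socs4, probeset 1421274_at read 3.46, 3.56 and 3.37 in v-Src cells, 3.77, 4.29 and 3.71 in STAT3-C cells and 3.18, 3.17 and 3.25 in control, all below the lower quartile of their arrays. The STAT3-C difference of 0.73 passed (SE 0.15, limma adjusted p = 0.00841), but without STAT3-C array 2, the highest, it was 0.54 and under the fold threshold. The brighter 1455142_at read 8.43, 8.62 and 9.09 in v-Src cells, 9.40, 9.49 and 9.13 in STAT3-C cells and 9.14, 8.68 and 9.32 in control. Its lines overlapped with control, and neither difference passed (-0.33 in v-Src cells and 0.29 in STAT3-C cells). The other Socs4 probesets were not called, with differences in v-Src cells of 0.31 for 1421273_at and 0.15 for 1421275_s_at and in STAT3-C cells of 0.46 and 0.06.

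The Socs7 probeset 1434834_at read 8.84, 8.58 and 8.61 in v-Src cells, 7.87, 8.06 and 7.91 in STAT3-C cells and 8.39, 8.35 and 8.27 in control. The lines did not overlap, and they moved in opposite directions from control, by 0.34 in v-Src cells (limma adjusted p = 0.0321) and -0.39 in STAT3-C cells (limma adjusted p = 0.0143), each under the fold threshold. The other 3 Socs7 probesets gave differences between -0.12 and 0.38 and none passed. For Socs6, 1452764_at read 6.01, 5.76 and 6.30 in v-Src cells, 5.32, 5.31 and 5.32 in STAT3-C cells and 5.46, 5.26 and 5.60 in control. The v-Src arrays were all above both other lines, with a difference from control of 0.58 (SE 0.15, limma adjusted p = 0.0281) that was just under the fold threshold. Without v-Src array 5 it was 0.71, and without control array 3 it was 0.66, and both passed. STAT3-C differed from control by -0.13. The other Socs6 probesets were not called either: 1435492_at, whose v-Src arrays spread from 6.55 to 7.60, differed by 0.60 in v-Src cells (0.28 without v-Src array 6) and 0.54 in STAT3-C cells (0.72, limma adjusted p = 0.0287 and called, without STAT3-C array 3), and 1450129_a_at by 0.46 in v-Src cells and -0.05 in STAT3-C cells.

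**Figure D2:**
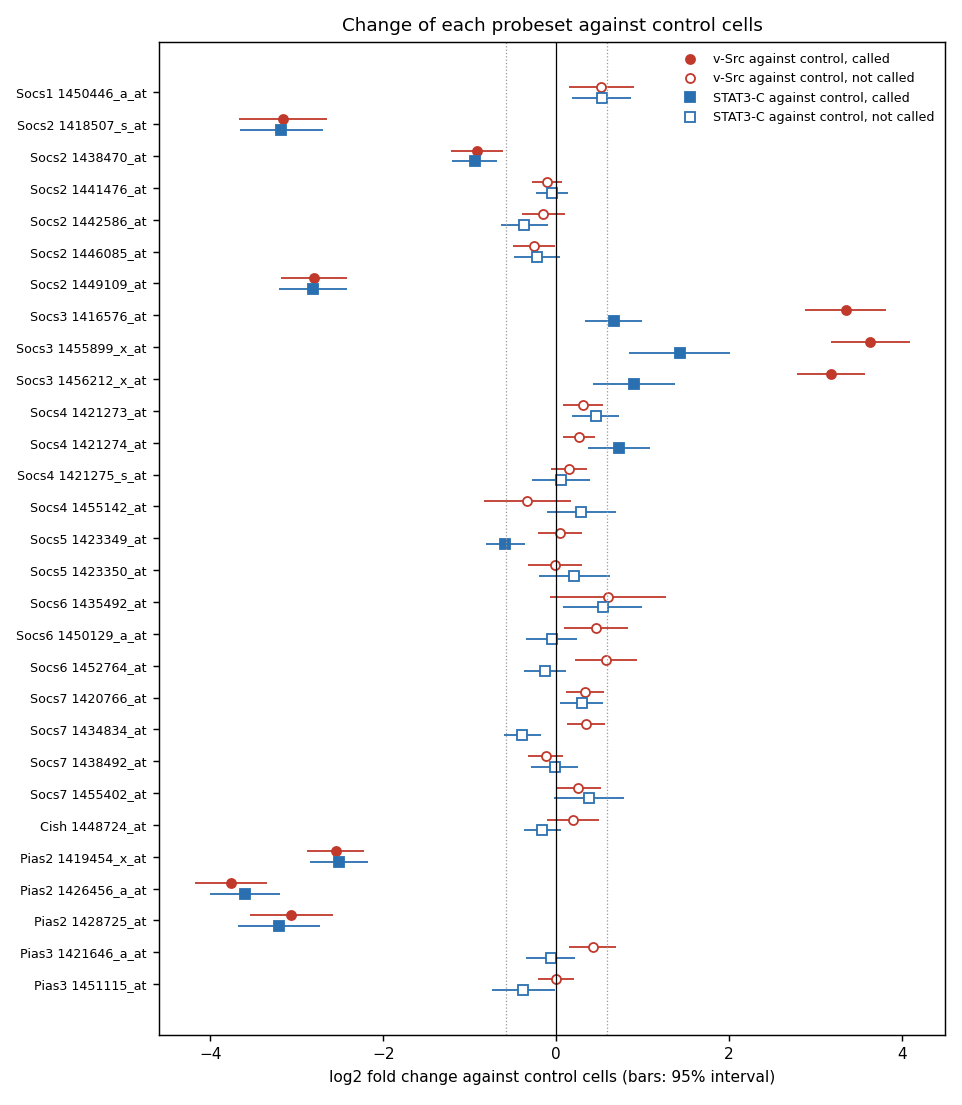
Log2 fold change of each inhibitor probeset, for v-Src against control and STAT3-C against control, as points with bars for the 95% interval from limma; filled points passed the test (adjusted p below 0.05, fold at or above 1.5), and dotted lines mark that fold. The 3 Socs3 probesets lay to the right in both lines, and the 3 Pias2 probesets and 3 of 6 Socs2 probesets lay to the left.

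In v-Src cells 3 of the 29 probesets were called higher (10.3%, against 8.75% of all probesets), all of Socs3, and 6 lower (20.7%, against 8.1%), of Pias2 and Socs2. In STAT3-C cells 4 were called higher (13.8%, against 9.68%), of Socs3 and Socs4, and 7 lower (24.1%, against 8.58%), of Pias2, Socs2 and Socs5. The Socs4 call is of 1421274_at, which was below the lower quartile on every array, and 3 were called higher when only probesets above the median level were tested. The median difference over the 29 was 0.15 in v-Src cells and -0.05 in STAT3-C cells, against 0.03 and 0.02 over all probesets. Probesets of 1 gene are not independent, since they report the same locus. Counted with the brightest probeset of each gene, 1 of 10 genes was called higher in v-Src cells (against 9.54% of all 18193 genes) and 1 lower (against 10.4%), and in STAT3-C cells 1 higher (against 11.9%) and 2 lower (against 10.3%). That count misses Socs2, whose brightest probeset was not called.

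The direct comparison of v-Src with STAT3-C asks where the lines differ. Of the 29 probesets 6 were called higher in v-Src cells (20.7%, against 4.99% of all probesets) and 1 lower (3.45%, against 5.33%). By genes, 2 of 10 were called higher (against 4.84%) and 1 lower (against 6.83%). The study's methods normalised the control arrays with each line separately, and the run used for each deposited column is not given. If the columns of v-Src and STAT3-C come from different runs, run and line cannot be told apart here.

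**Figure D3:**
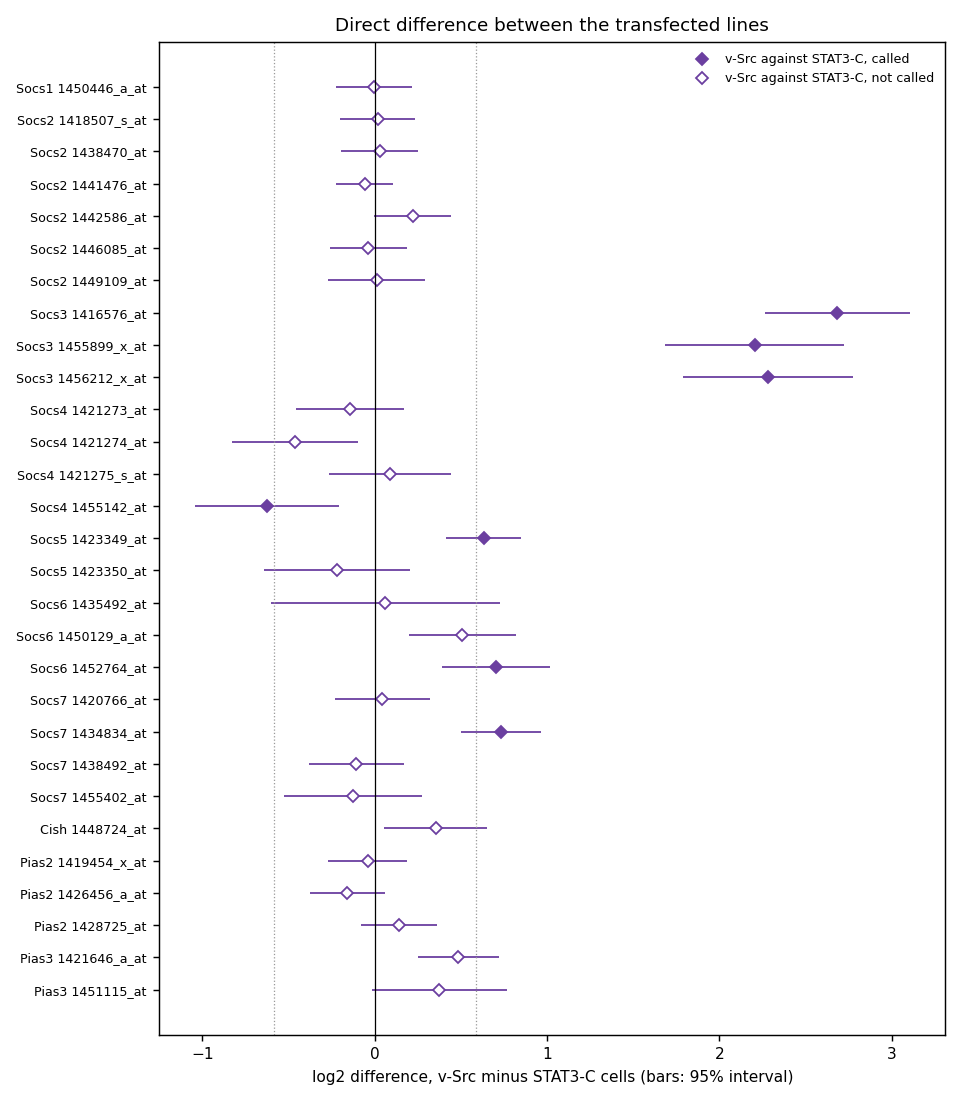
Log2 difference between v-Src and STAT3-C cells for each inhibitor probeset, as points with bars for the 95% interval from limma; filled points passed the test (adjusted p below 0.05, fold at or above 1.5). Socs3 lay furthest to the right at 2.21 to 2.68, and the Pias2 probesets lay close to 0.

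Socs3 accounted for 3 of the 6 higher calls, with differences of 2.68 (SE 0.18, 6.42-fold, limma adjusted p = 0.000332), 2.21 (SE 0.22, 4.61-fold, limma adjusted p = 0.00103) and 2.28 (SE 0.21, 4.86-fold, limma adjusted p = 0.000807) for 1416576_at, 1455899_x_at and 1456212_x_at. The rest were the Socs7 probeset 1434834_at (0.73, SE 0.10, limma adjusted p = 0.00307), the Socs6 probeset 1452764_at (0.70, SE 0.13, limma adjusted p = 0.0106) and the Socs5 probeset 1423349_at (0.63, SE 0.09, limma adjusted p = 0.00406). Both the Socs6 call (0.57, limma adjusted p = 0.0211) and the Socs5 call (0.55) were lost without v-Src array 6. The lower call was the Socs4 probeset 1455142_at (-0.63, SE 0.18, limma adjusted p = 0.0463), which did not pass in 9 of 15 alternatives. For Cish the difference was 0.35 (SE 0.13, 95% interval 0.05 to 0.65, limma adjusted p = 0.0966), and it was not called. Pias3 (1421646_a_at, 0.49, limma adjusted p = 0.0147) and Socs6 (1450129_a_at, 0.51, limma adjusted p = 0.0349) had an adjusted p below 0.05 but were under the fold threshold.

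The Pias2 and Socs2 probesets showed no called difference between v-Src and STAT3-C. For Pias2 the difference was -0.16 (95% interval -0.37 to 0.06) for 1426456_a_at, 0.14 (-0.08 to 0.36) for 1428725_at and -0.04 (-0.27 to 0.19) for 1419454_x_at. For Socs2 it was 0.02 (-0.20 to 0.24), 0.01 (-0.27 to 0.29) and 0.03 (-0.19 to 0.25) for the 3 probesets that fell. Near the background of the arrays such intervals limit the difference of the readings and not of the RNA. Socs1 differed by -0.00336 (-0.22 to 0.22).

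Other genes of the pathway (kinases and STATs, receptors, phosphatases, SOCS ligase partners, the SUMO pathway and other PIAS genes) were measured for 48 of 57 listed, with the brightest probeset of each. Of 10 JAK and STAT genes, 4 were called up and 2 down in v-Src cells, against 9.54% up and 10.4% down over all genes. In STAT3-C cells 1 was called up and 3 down, against 11.9% and 10.3%, so that the count up was near the share over all genes. Stat5a, a STAT activated by prolactin and growth hormone, rose by 2.34 in v-Src cells (SE 0.09, limma adjusted p = 8.57e-06) and by 1.19 in STAT3-C cells (SE 0.16, limma adjusted p = 0.000876). Stat3 rose by 1.53 in v-Src cells (SE 0.16, limma adjusted p = 0.000537) and differed by 0.24 in STAT3-C cells. Stat5b rose by 0.81 and Jak3 by 0.63 in v-Src cells, and in STAT3-C cells they differed by 0.42 and 0.13, under the threshold. Stat2, which carries interferon signals, fell by 1.88 in v-Src cells (SE 0.20, limma adjusted p = 0.000590) and fell by 2.53 in STAT3-C cells (SE 0.21, limma adjusted p = 7.87e-05). Jak2 fell by 0.72 in v-Src cells and fell by 1.81 in STAT3-C cells, and Jak1 fell by 0.93 in STAT3-C cells. The Jak1 difference of -0.43 in v-Src cells was not called, nor was the direct difference between v-Src and STAT3-C cells (0.50, limma adjusted p = 0.0433, under the fold threshold).

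**Figure D4:**
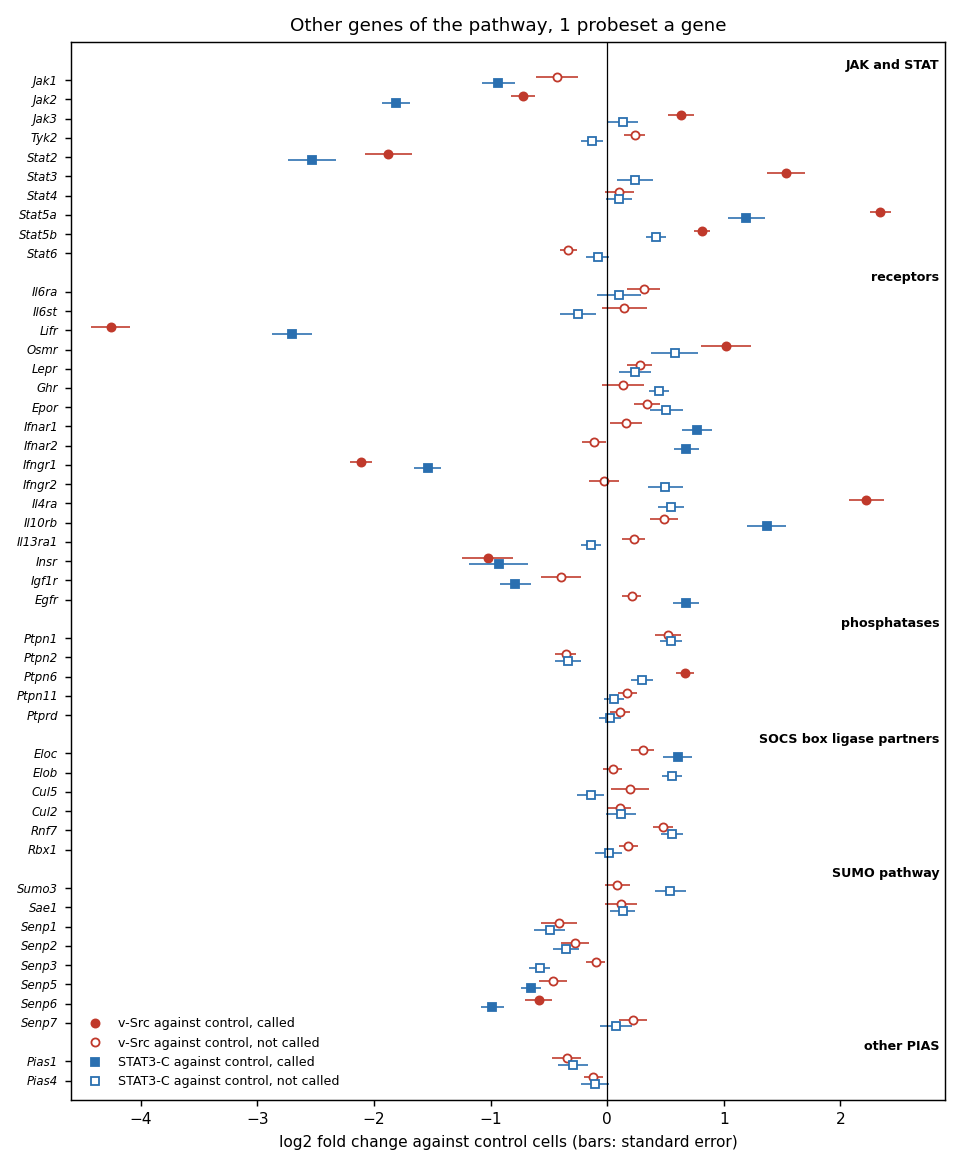
Log2 fold change of the genes of the JAK and STAT, receptor, phosphatase, SOCS box ligase, SUMO and other PIAS lists, for v-Src against control and STAT3-C against control, as points with bars for the standard error; filled points passed the test. Stat5a and Il4ra lay furthest right in v-Src cells, at 2.34 and 2.22, and Lifr furthest left at -4.26.

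Of 17 receptor genes, 2 were called up and 3 down in v-Src cells, where the count up was near the 9.54% of all genes called up (10.4% were called down). In STAT3-C cells 4 receptor genes were called up and 4 down, against 11.9% and 10.3% of all genes. Lifr, the receptor for leukemia inhibitory factor, fell by 4.26 in v-Src cells (SE 0.16, limma adjusted p = 8.10e-06) and fell by 2.70 in STAT3-C cells (SE 0.17, limma adjusted p = 2.30e-05). Ifngr1, a chain of the interferon gamma receptor, fell by 2.11 in v-Src cells and fell by 1.54 in STAT3-C cells. Il4ra, a chain of the interleukin-4 receptor, rose by 2.22 in v-Src cells (SE 0.15, limma adjusted p = 7.45e-05) and differed by 0.55 in STAT3-C cells, which was under the threshold. Among the 5 phosphatases only Ptpn6 was called, higher in v-Src cells by 0.67. Of the 6 partners that SOCS proteins recruit into a ligase, only Eloc, elongin C, was called, higher by 0.60 in STAT3-C cells. Of 8 SUMO pathway genes, the SUMO protease Senp6 fell by 0.59 in v-Src cells and fell by 0.98 in STAT3-C cells, Senp5 fell by 0.66 in STAT3-C cells and none rose. The other PIAS genes, Pias1 and Pias4, were not called, with differences of -0.35 and -0.12 in v-Src cells and -0.30 and -0.10 in STAT3-C cells.

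Genes whose values lay closest to those of Socs3 (1455899_x_at) and Pias2 (1426456_a_at) were sought over all 9 arrays, relative to the control mean, by the root mean square log2 difference. For Socs3 these were Gcnt2, a glycosyltransferase, at 0.312 (Pearson r 0.979), Fetub, a secreted protease inhibitor, at 0.335 and 2500002B13Rik at 0.337. For Pias2 they were Ptgfr, the prostaglandin F receptor, at 0.132 (r 0.997, with -3.76 for v-Src and -3.68 for STAT3-C), Zfp647 at 0.223 and Gxylt2 at 0.226. The 9 arrays fall into 3 lines, so likeness over arrays is mostly likeness between line means.

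The genes flanking Pias2, Socs2 and Socs3 were set beside them (the 3 measured genes on each side in gene order, a choice made after the members' values were seen). On chromosome 18, Pias2 had 6 neighbours with differences between -0.89 and 0.40, of which only Haus1 was called, lower in v-Src cells (-0.89, limma adjusted p = 0.00514). The adjacent Katnal2 and St8sia5 differed by 0.40 and 0.32 in v-Src cells and by 0.12 and 0.27 in STAT3-C cells, against falls of Pias2 itself of more than 2 on the log2 scale. On chromosome 10, 3 of 6 neighbours of Socs2 fell in v-Src cells (Cep83 -1.53, Ube2n -1.29 and Cradd -0.67). The falls in STAT3-C cells were of 4 of 6 (Nudt4 -1.28, Ube2n -0.94, Cep83 -0.67 and Cradd -0.65). Over all genes 10.4% were called lower in v-Src cells and 10.3% in STAT3-C cells. On chromosome 11, none of the 6 neighbours of Socs3 was called in v-Src cells. Birc5 and Cyth1 rose by 0.93 and 0.91 in STAT3-C cells, where 11.9% of all genes were called higher.

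**Figure D5:**
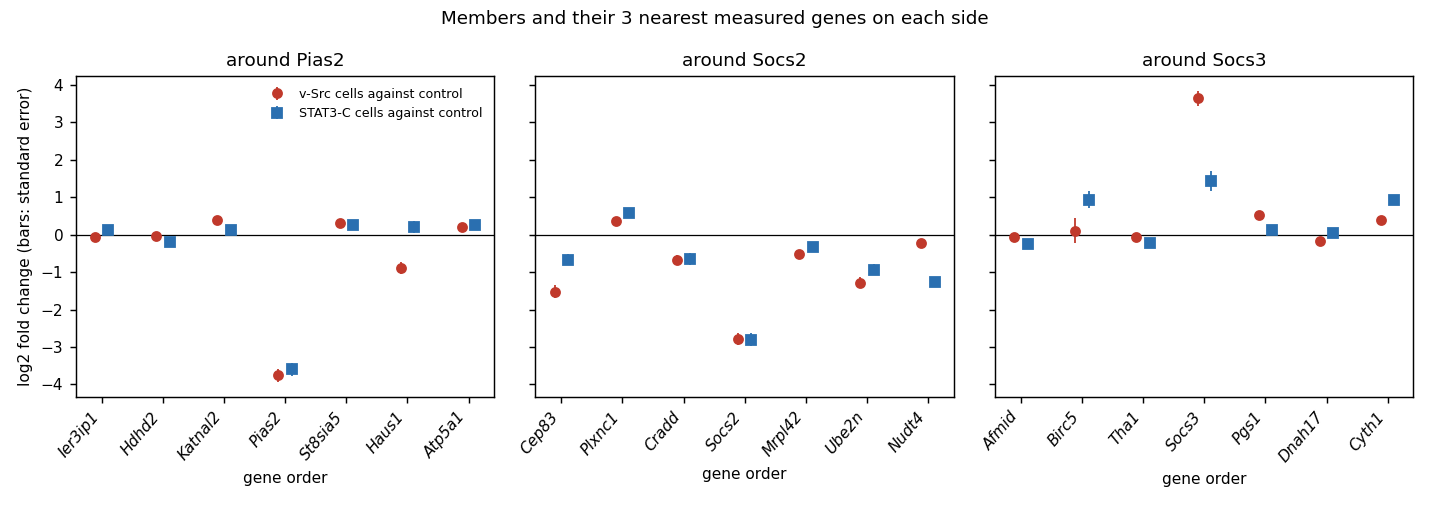
Log2 fold change of Pias2, Socs2 and Socs3 and of the 3 measured genes on each side in gene order (horizontal axis, places from the member), for v-Src against control and STAT3-C against control, as points with bars for the standard error. Each member is drawn by its brightest called probeset (1449109_at for Socs2), and each neighbour by its brightest probeset, called or not. The brightest Socs2 probeset, 1442586_at, was not called (-0.15 in v-Src and -0.37 in STAT3-C cells). Beside Pias2 only Haus1 of 6 genes was called lower, in v-Src cells. Beside Socs2 3 of 6 genes were called lower in v-Src cells (10.4% of all genes) and 4 of 6 in STAT3-C cells (10.3% of all genes).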

How the data were processed

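RNA was measured on Affymetrix mouse arrays, 3 for each line. The authors made log2 expression values by RMA before deposit, and the deposited table holds 1 column per array. Per the methods, the control arrays went through RMA 2 times, in a run with each transfected line, and which run supplied the control columns is not given. Values equal to the last digit occurred between v-Src and STAT3-C arrays at 7822 probesets, between v-Src and control arrays at 7932 and between STAT3-C and control arrays at 6575.

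For each comparison its 6 arrays were fitted in R 4.3.3 with limma 3.58.1 (linear model, eBayes), with Benjamini-Hochberg adjustment over 45037 probesets and 64 control probesets left out. A call needed a fold of 1.5 or more and an adjusted p below 0.05. With 3 arrays against 3, no exact permutation p can be below 0.1. Intervals are 95%, and the number of arrays limits the precision. Of the probesets, 34945 carried 1 symbol, 932 several and 9160 none, and 34741 matched the mouse gene table (GRCm38.p6) that gave names, neighbours and promoter windows.

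The members and the gene lists (JAK and STAT, receptors, phosphatases, SOCS box ligase partners, SUMO pathway, other PIAS and cell type markers) were chosen with earlier results of these data known. Named were all members, every called JAK and STAT gene, up to 3 called genes of each other list with the largest change, and the 3 genes nearest a member whose brightest probeset was called in both lines. Pias1, Pias4, Thy1, the fibroblast markers not called and the neighbours were named after their values were seen. The tests were checked on simulated data. Alternatives were 1 fit of all 9 arrays, quantile normalization, median centring, probesets above the median only, other thresholds, SAM (20 groupings), robust eBayes with a trend, leaving out each array, the replicate number as a block, and other choices of probeset. Python 3.11.15 with matplotlib 3.10.9 drew the figures.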

Additional observations from a re-analysis of the deposited data

Results flagged for a closer look

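The inhibitor probesets below differed between the v-Src and STAT3-C lines by the direct limma test. For Socs3 the v-Src minus STAT3-C difference was 2.68 for 1416576_at, 2.21 for 1455899_x_at and 2.28 for 1456212_x_at. It was 0.73 for Socs7 (1434834_at), 0.70 for Socs6 (1452764_at), 0.63 for Socs5 (1423349_at) and -0.63 for Socs4 (1455142_at). Groups of 3 arrays are too small for a test of single outlying arrays, but each array was left out in turn. The Socs3 and Socs7 calls were kept each time. The Socs6 and Socs5 calls were lost without v-Src array 6. The Socs4 call was lost without any 1 array other than v-Src array 6.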

How the results depend on the processing

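No call of a member probeset reversed under any alternative. With v-Src 413 of 423 alternative values kept their side of the threshold, 434 of 452 did so for STAT3-C, and between the 2 lines 404 of 422 did; 39 values changed sign, none of them called in either setting and each at most 0.125 in size as reported. With probesets above the median level only, the count lower with v-Src was 1 and with STAT3-C 2, since dim probesets were left out. With no fold threshold, 9 were higher with v-Src. With a fold of at least 2, 1 was higher with STAT3-C, and 3 between the transfected lines. The lower call of the direct comparison (Socs4) was 0 with all 9 arrays in 1 fit, with median centring, with a fold of at least 2 and with an adjusted p under 0.01; the cause was not tested. When the probesets of each gene were averaged, 2 genes were lower with v-Src, and 1 was higher and 0 lower in the direct comparison. Leaving out 1 array gave 3 to 5 higher and 6 to 6 lower with v-Src, 2 to 5 and 6 to 7 with STAT3-C, and 4 to 7 and 0 to 1 between the transfected lines. Of all v-Src calls 51.9% were higher as deposited and 44.1% after median centring. With the replicate number as a replicate block for STAT3-C against control, 4 probesets were higher and 7 lower, as without it. Same-numbered arrays did not deviate together (correlations -0.0926, 0.0645 and 0.0446), so the numbers were not taken as pairs; v-Src shares only 1 number with the other lines and could not be blocked. Depth is not recorded by arrays, and values under the lower quartile have no reliable order.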
